A study of Mus musculus with 4 samples.

Results

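Microglial genes were followed in the lumbar spinal cord of nerve-injured mice. The set held 36 genes that mark microglia or work in them, found among 30222 gene names on the array by an exact match of the name, and they had 51 of the 39429 probes. The mice were male ICR mice, an outbred stock, aged 5 to 6 weeks, and RNA came from L4 to L5 lumbar slices on day 7 after partial ligation of the right sciatic nerve (PSL). Sham+PSL mice kept their adrenal glands, which secrete corticosterone, and ADX+PSL mice had lost them by adrenalectomy (ADX) and drank saline. Each operation was sampled at zeitgeber time 10 (ZT10), near the plasma corticosterone peak of sham+PSL mice, and at ZT22, when corticosterone had declined, with 1 array per condition and 4 arrays in all. Every array was from injured mice, so the response to the injury itself cannot be read here. Neither the side of the cord nor the number of mice behind each RNA was stated for the arrays.

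Microglia are the resident macrophages of the central nervous system. They depend on the growth factor receptor encoded by *Csf1r*, sense neurons through *Cx3cr1* and purine receptors, tag and engulf material with complement and TREM2, and detect damage through Toll-like and Fc receptors. After a peripheral nerve injury, spinal microglia are known to multiply and to take on a reactive state, and the transcription factors IRF8 and IRF5 take part in that change.

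A level is a normalized signal intensity in arbitrary units, and differences are on the log2 scale. The error beside a difference is the spot error, which the image analysis gives for 1 spot and which leaves out the spread between mice. Its median over the genes was 0.20 for a difference of 2 arrays and 0.14 for the difference between operations over 4 arrays. No condition had a replicate array. Between 65.1% and 70.1% of all probes were well above background on an array, so precision is set by how few arrays there are. For each gene the probe with the highest mean level was used. By that probe 34 of the 36 genes were well above background on all 4 arrays, *Fcgr1* on 3 arrays and *Cybb*, a subunit of the phagocyte oxidase, on none.

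The brightest probe was not always gene-specific, and the probes of *Itgam* and *Siglech* are shown for that reason. *Itgam* encodes the integrin chain CD11b. Its brightest probe, at chr7:135261755-135261814 of mm9, shares words of 18 bases with the promoter windows of 120 other genes and with 95 other probes of the array, whose median level was 3876. The brightest *Siglech* probe, at chr7:63034088-63034147, shares such words with 21 other genes and 6 other probes. In the 30-base windows below, capitals mark bases that lie in an 18-base word found in the promoter window of another gene. Bases 1 to 30 are shown, except for the brightest *Siglech* probe, of which bases 4 to 33 are shown.
Itgam brightest probe: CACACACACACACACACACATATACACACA
Itgam next probe, chr7:135260275-135260334: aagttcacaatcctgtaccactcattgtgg
Siglech brightest probe: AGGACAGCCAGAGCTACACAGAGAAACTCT
Siglech dimmest probe, chr7:63033826-63033885: acaacagttaaattcccttgcagagacatc
The *Itgam* window is a run of CA dinucleotides, and all 30 bases of the *Siglech* window lie in shared words. No annotation of mm9 was used here, so the exon or untranslated region of a probe is not given. Values of these 2 genes are therefore given for other probes too.

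Most microglial genes had the same highest and the same lowest array. Relative to each gene's own mean, the median of the 34 genes was -0.07 for sham+PSL at ZT10 and 0.42 at ZT22, and it was -0.38 on the ADX+PSL array at ZT10 and 0.03 on that at ZT22. The highest level lay on the sham+PSL array at ZT22 for 26 of the 35 genes above background on at least 1 array, against 24.3% of all probes. The lowest level lay on the ADX+PSL array at ZT10 for 26 genes, against 21.4% of all probes, and both held for 22 genes, against 7.95%. The SD of a gene's centred log2 level over the arrays had a median of 0.34, and of 0.16 once the median of each array was taken away. In these bulk slices, fewer microglia and less RNA per microglial cell cannot be told apart.

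**Figure D1:**
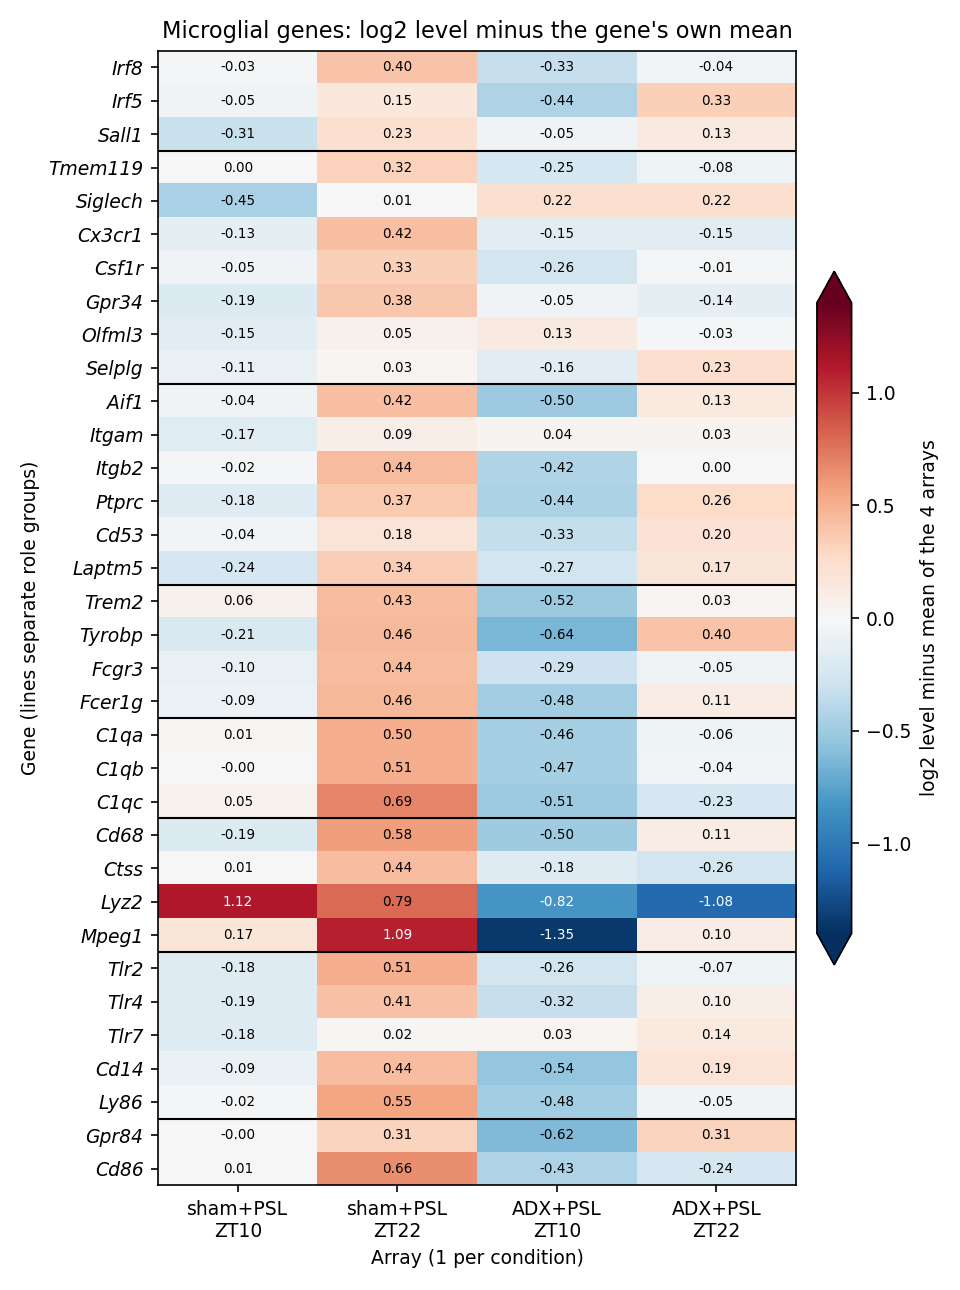
Each cell is the log2 level of a microglial gene minus the gene's own mean over the 4 arrays, for the 34 genes well above background on all of them, with lines between role groups, red above the mean and blue below it. The column of sham+PSL at ZT22 is mostly positive (median 0.42) and that of ADX+PSL at ZT10 mostly negative (median -0.38). *Siglech* and *Itgam* are shown by their repeat probes.

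Of the regulators of microglial fate, *Irf8* was the one whose groups did not overlap. *Irf8*, a transcription factor that microglia need (probe at chr8:123280324-123280383 of mm9), had a level of 686 at ZT10 and 925 at ZT22 in sham+PSL, against 559 and 683 in ADX+PSL. Both ADX+PSL values lay under both sham+PSL values, but 683 and 686 lay within the spot error of each other. The difference between operations was -0.37 (spot error 0.14). The levels of *Irf5*, which acts downstream of IRF8 in reactive microglia, were 185 and 212 in sham+PSL and 141 and 240 in ADX+PSL, so that the highest and the lowest level both came from ADX+PSL. *Sall1*, a transcription factor that keeps microglial identity, stood at 352 and 512 in sham+PSL and at 422 and 478 in ADX+PSL. All 3 were lower at ZT10 than at ZT22 in both operations.

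The surface and secreted genes of resting microglia had a median time difference of -0.38 in sham+PSL, where all 7 were lower at ZT10. In ADX+PSL 5 of 7 were lower at ZT10, with a median of -0.01, and whether the operations differed in this was not tested. *Tmem119*, a marker that separates microglia from other macrophages, had levels of 1862 at ZT10 and 2314 at ZT22 in sham+PSL, against 1565 and 1762 in ADX+PSL. *Cx3cr1*, the fractalkine receptor, was measured at 5633 and 8244 in sham+PSL and at 5534 and 5560 in ADX+PSL. By this probe sham+PSL at ZT22 stood above the other arrays, which lay close together. Its dimmer probe gave 1040 and 1504 against 798 and 1130, where the operations overlapped and the ADX+PSL time difference was -0.50. *Csf1r*, the receptor on which microglial survival depends, had 16110 and 20985 in sham+PSL against 13947 and 16550 in ADX+PSL, which overlap by a little. *Gpr34*, a lysophosphatidylserine receptor, was at 523 and 776 in sham+PSL and at 579 and 543 in ADX+PSL. For *Selplg*, which encodes a selectin ligand, the values were 1541 and 1695 in sham+PSL and 1491 and 1952 in ADX+PSL, so its highest level was not on the sham+PSL array at ZT22.

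*Siglech* and *Olfml3* depended on the probe. The repeat probe of *Siglech*, a lectin of microglia, gave levels of 28216 and 38798 in sham+PSL and 45024 and 45065 in ADX+PSL, a difference of 0.45. Its probe without shared words and with the next level gave 1601 and 1820 against 1996 and 1643, a difference of 0.09, and the third gave 1038 and 1426 against 820 and 988, a difference of -0.43. One probe thus placed ADX+PSL above sham+PSL, one below it, and one overlapped. *Olfml3*, a secreted glycoprotein gene, had 1768 and 2044 in sham+PSL and 2146 and 1933 in ADX+PSL by its brightest probe, and 967 and 931 against 580 and 760 by the other, with differences of 0.10 and -0.51.

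The leukocyte and integrin genes had a median difference between operations of -0.16 and a median time difference of -0.46 in sham+PSL, against -0.49 in ADX+PSL. *Aif1*, which encodes the microglial stain Iba1, had a level of 2767 at ZT10 and 3811 at ZT22 in sham+PSL, against 2012 and 3130 in ADX+PSL. Each ZT10 array was under the ZT22 array of the same operation, by 0.46 and 0.64 on the log2 scale (spot error 0.20 each). *Itgb2*, the partner chain of CD11b, was at 205 and 283 in sham+PSL and at 156 and 209 in ADX+PSL. *Ptprc*, the leukocyte marker CD45, was dim at 69.7 and 102 in sham+PSL and 58.2 and 94.6 in ADX+PSL, with the same order of time points. The lysosomal gene *Laptm5* had 567 and 847 against 554 and 754, and the tetraspanin gene *Cd53* had 112 and 130 against 91.4 and 132.

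For *Itgam* the repeat probe hardly varied, with levels of 44355 and 53144 in sham+PSL and 51198 and 50946 in ADX+PSL. The next probe, without shared words, gave 184 and 437 in sham+PSL and 166 and 358 in ADX+PSL. It was lower at ZT10 by 1.25 in sham+PSL and by 1.11 in ADX+PSL on the log2 scale, and its operations overlapped. The third *Itgam* probe gave 43.5, 51.4, 71.8 and 43.1 in the same order of arrays, and was highest in ADX+PSL at ZT10.

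TREM2 and the Fc receptors signal through the adaptors DAP12, encoded by *Tyrobp*, and the Fc receptor gamma chain, encoded by *Fcer1g*. *Trem2* (probe at chr17:48491537-48491596 of mm9) had levels of 3204 and 4129 in sham+PSL, against 2137 and 3133 in ADX+PSL, which did not overlap. The nearest pair, 3204 and 3133, lay within the spot error. *Tyrobp* was at 3332 at ZT10 and 5297 at ZT22 in sham+PSL and at 2467 and 5083 in ADX+PSL. Here the time points, not the operations, were apart: the ZT10 level was lower by 0.67 in sham+PSL and by 1.04 in ADX+PSL (log2, spot error 0.20 each). *Fcer1g* ran from 2245 to 3280 in sham+PSL and from 1706 to 2564 in ADX+PSL, with ZT10 the lower each time, and *Fcgr3*, a low-affinity IgG receptor, from 254 to 370 and from 223 to 264.

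*Fcgr1*, the high-affinity IgG receptor (probe at chr3:96086839-96086898 of mm9), was the exception to the group. In sham+PSL it had a level of 10.2 at ZT10, where it was not well above background, and of 29.5 at ZT22. In ADX+PSL it had 106 at ZT10 and 25.8 at ZT22, so the former stood above every other array. Against the lowest level called well above background on the sham+PSL array at ZT10, which was 14.88, the ADX+PSL level at ZT10 was at least 7.11-fold higher, and the sham+PSL level at ZT22 at least 1.98-fold higher. With *Fcgr1* set at this bound the median differences over the genes were as without it, at -0.32 between operations, -0.51 between time points in sham+PSL and -0.39 in ADX+PSL.

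The 3 chains of complement C1q, the recognition unit of the classical pathway, were measured by probes that lie side by side on chromosome 4 of mm9 (chr4:136452409-136452468 for *C1qa*, chr4:136436578-136436637 for *C1qb*, chr4:136445766-136445825 for *C1qc*). *C1qa* had 2709 and 3809 in sham+PSL and 1952 and 2579 in ADX+PSL. *C1qb* had 1261 and 1798 against 914 and 1233, and *C1qc* had 2196 and 3402 against 1489 and 1798. The operations did not overlap for any chain, ADX+PSL being the lower, with differences of -0.52, -0.50 and -0.74 (spot error 0.14 each). For *C1qa* and *C1qb* the nearest levels of the operations lay within the spot error of 2 arrays. The SE from the additive model of operation and time point fitted with limma was 0.12, 0.12 and 0.16, and the adjusted p was 0.778, 0.778 and 0.776. Limma moderates this SE. It joins the gap between the time differences of the 2 operations (1 degree of freedom) and a variance pooled over all probes (1.89). The spread between mice is left out. All 3 chains were lower at ZT10 in both operations.

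The lysosomal and lytic genes held the 2 largest negative differences between operations. *Lyz2*, the lysozyme gene of macrophages and neutrophils (probe at chr10:116719175-116719234 of mm9), had levels of 200 at ZT10 and 159 at ZT22 in sham+PSL, against 52 and 43.4 in ADX+PSL. The ADX+PSL levels were 0.266 of the sham+PSL levels, a difference of -1.91 (spot error 0.18, limma SE 0.12, adjusted p = 0.623), which was -1.08 with normexp background correction. *Mpeg1*, the pore-forming protein of the phagosome (chr19:12539387-12539446), had 1912 and 3621 in sham+PSL and 667 and 1831 in ADX+PSL, a difference of -1.25 (spot error 0.14, limma SE 0.20, adjusted p = 0.712). Its second probe gave 35.6 and 55.9 against 11.1 and 31.5, of which the ADX+PSL level at ZT10 was not well above background and at least 2.78-fold below that of sham+PSL. These 2 genes split by time: *Mpeg1* was lower at ZT10 in both operations, with differences of -0.92 and -1.46, and *Lyz2* was 0.33 and 0.26 higher at ZT10.

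*Ctss*, the lysosomal protease cathepsin S, had 14290 and 19277 in sham+PSL and 12542 and 11898 in ADX+PSL, so that sham+PSL at ZT22 stood apart. *Cd68*, a lysosomal membrane protein gene used as a stain of phagocytic microglia, had 753 and 1284 in sham+PSL and 607 and 923 in ADX+PSL. Its dimmer probe gave 89.7 and 66.9 against 25.8 and 42.3, with a difference between operations of -1.23 where the bright probe gave -0.39, and with the higher sham+PSL level at ZT10. *Cybb* lay between 3.64 and 11.3, below background on all arrays, and has no ratio.

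Among the pattern recognition genes, *Ly86*, which encodes the MD-1 partner of RP105, had levels of 5525 and 8187 in sham+PSL. In ADX+PSL it had 3997 and 5383, which did not overlap with these. The nearest pair, 5525 and 5383, lay within the spot error. *Cd14*, the lipopolysaccharide coreceptor, was at 347 and 501 in sham+PSL and at 255 and 423 in ADX+PSL, and *Tlr2*, which senses lipoproteins, at 225 and 364 against 213 and 243. *Tlr4*, the lipopolysaccharide receptor, was dim, at 31.6 and 47.7 in sham+PSL and 28.8 and 38.4 in ADX+PSL. These 4 had their highest level in sham+PSL at ZT22. A second *Tlr4* probe was above background there alone, at 78.9, at least 5.31-fold over ZT10 of the same operation, and the mean over both probes put the difference between operations at -0.63, where the brighter one gave -0.22. *Tlr7*, an endosomal sensor of single-stranded RNA, went the other way by operation, with 208 and 238 in sham+PSL and 240 and 259 in ADX+PSL, a difference of 0.16 (spot error 0.15). A second *Tlr7* probe gave 63.2 and 77.9 against 57.2 and 101, which overlap.

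Of the activation genes, *Cd86*, a costimulatory ligand for T cells, had 95.9 and 150 in sham+PSL and 70.8 and 80.7 in ADX+PSL. The operations did not overlap, with a difference of -0.66 (spot error 0.16), or -0.39 with normexp. *Gpr84*, a receptor for medium-chain fatty acids, was at 316 and 393 in sham+PSL and at 206 and 394 in ADX+PSL, so that ADX+PSL at ZT10 was the low array and the ZT22 arrays lay within the spot error of each other.

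The first comparison asked whether the microglial genes differed between the time of high and of low corticosterone in mice with adrenal glands. In sham+PSL, 34 of 35 genes were lower at ZT10 than at ZT22, against 47.4% of all probes, with *Lyz2* the exception. The median difference was -0.51, against 0.01 over all probes, and 23 genes were lower by more than 2 spot errors with *Fcgr1* set at its bound, against 6.19% of all probes. A level of at most 1 / 1.5 of that at ZT22 was found for 8 of 35 genes, *Tyrobp*, *Fcgr1*, *C1qc*, *Cd68*, *Mpeg1*, *Tlr2*, *Tlr4* and *Cd86*, against 5.36% of all probes, and for 4 genes with normexp background correction. No gene was higher by a ratio of 1.5, against 5.21%. The limits of the study's methods, a Z-score of at least 2 and a ratio of at least 2, were passed by 1 gene at ZT22 over ZT10, *Fcgr1*, against 2.03% of all probes, and by none in the other direction, against 2.19%. *Fcgr1* was not above background at ZT10, and among genes above background on all 4 arrays none passed.

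The same time points were compared in ADX+PSL, which lacks the adrenal source of corticosterone. Here 29 of 35 genes were lower at ZT10, against 47.7% of all probes, with a median of -0.39 against 0.01, and 15 were lower by more than 2 spot errors, against 4.69%. At a ratio of 1.5, 9 genes were lower at ZT10, *Irf5*, *Aif1*, *Ptprc*, *Tyrobp*, *Fcer1g*, *Cd68*, *Mpeg1*, *Cd14* and *Gpr84*, against 3.95% of all probes, and *Fcgr1* was higher, against 4.98%. By the methods' limits *Mpeg1* was lower, against 1.66%, and *Fcgr1* higher, against 2.06%. The time differences of the 2 operations share no array, and 29 of 35 genes were lower at ZT10 in both, against 23.7% of all probes, while *Lyz2* alone was higher in both, against 27.5%. The genes lower by a ratio of 1.5 in both operations were *Tyrobp*, *Cd68* and *Mpeg1*, against 0.731% of all probes, thus 3 of the 8 found in sham+PSL, and 3 of the 9 found in ADX+PSL.

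**Figure D2:**
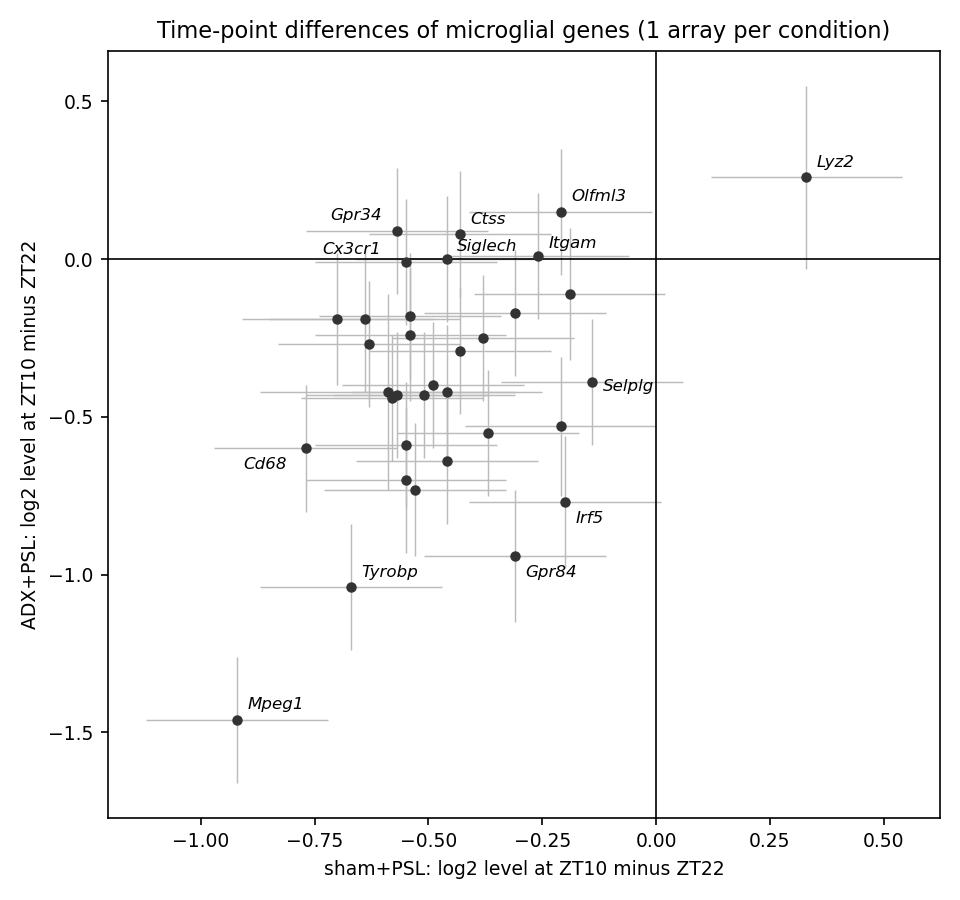
Each point is a microglial gene, with the log2 level at ZT10 minus ZT22 in sham+PSL on the x axis and in ADX+PSL on the y axis, and bars of 1 spot error; *Fcgr1* is left out, since its sham+PSL level at ZT10 was not above background. Most points lie in the lower left, *Mpeg1* is the farthest from 0 and *Lyz2* lies alone at the upper right.

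The next comparison set ADX+PSL against sham+PSL at the same time point. At ZT10, 28 of 35 genes were lower in ADX+PSL, against 49.3% of all probes, with a median of -0.29, and at ZT22, 29 of 35 were lower, against 49.2%, with a median of -0.36. The methods' limits were passed at ZT10 by *Lyz2* and *Mpeg1*, both lower, against 2.42%, and by *Fcgr1*, higher, against 2.09%. At ZT22, *Lyz2* was lower, against 2.09%, and none was higher, against 1.56%. At a ratio of 1.5, 3 genes were lower at ZT10, *Lyz2*, *Mpeg1* and *Gpr84*, against 5.65%, which is close to the background share. *Siglech*, by its repeat probe, and *Fcgr1* were higher, against 5.90%. At ZT22, 6 genes were lower, *C1qc*, *Ctss*, *Lyz2*, *Mpeg1*, *Ly86* and *Cd86*, against 5.59%, and none was higher, against 4.63%.

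Over both time points the median difference between operations was -0.32, against 0.00 over all probes. Of 35 genes, 28 had a negative difference, against 47.9% of all probes, and 7 a positive one, against 52.1%. With *Fcgr1* set at its bound, 20 were lower by more than 2 spot errors, against 5.86%, and *Siglech*, by its repeat probe, and *Fcgr1* were higher, against 6.65%. Both ADX+PSL arrays were below both sham+PSL arrays for 12 genes, against 16.3% of all probes: *Irf8*, *Tmem119*, *Cx3cr1*, *Trem2*, *C1qa*, *C1qb*, *C1qc*, *Ctss*, *Lyz2*, *Mpeg1*, *Ly86* and *Cd86*. Both were above for *Siglech*, by its repeat probe, and *Tlr7*, against 19.0%. This order takes no account of the spot error. For *Irf8*, *Tmem119*, *Cx3cr1*, *Trem2*, *C1qa*, *C1qb*, *Ctss*, *Mpeg1*, *Ly86* and *Tlr7* the nearest levels of the operations lay within it. Of the 12 genes on the low side, only *C1qc*, *Lyz2* and *Cd86* had nearest levels further apart than the spot error. Single arrays weighed on these values, since a pair of arrays of different time points is compared once 1 array is missing. The median was -0.58 without the sham+PSL array at ZT10, -0.07 without that at ZT22, -0.09 without the ADX+PSL array at ZT10 and -0.49 without that at ZT22. The count without overlap was then 27, 12, 12 and 28, against 32.0%, 34.2%, 33.6% and 30.3% of all probes.

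**Figure D3:**
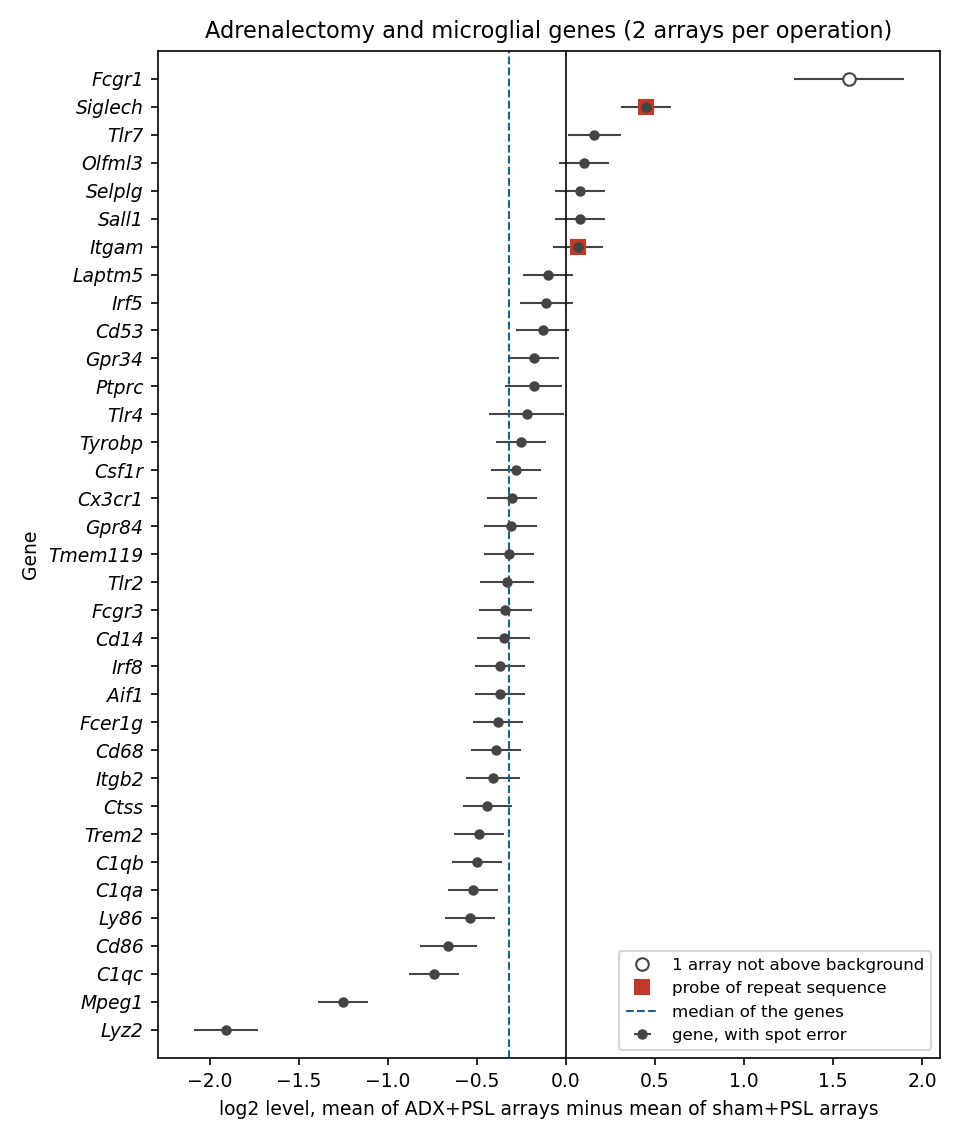
Points are the log2 difference between the mean of the 2 ADX+PSL arrays and the mean of the 2 sham+PSL arrays for each of 35 microglial genes, with bars of 1 spot error; the dashed line is the median, -0.32. *Lyz2* and *Mpeg1* lie farthest to the left, the open circle of *Fcgr1* marks a difference that includes 1 array not above background, and squares mark the repeat probes of *Siglech* and *Itgam*.

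In the additive model, fitted with limma over the 28845 probes above background on at least 1 array, no probe passed an adjusted p of 0.05 for operation or for time point, and so none of the 35 genes did. This model has 1 residual degree of freedom. At an unadjusted p under 0.05, 9 genes passed for operation, against 6.25% of all probes, and 14 for time point, against 4.92%. The 9 were *Itgb2*, *Trem2*, *C1qa*, *C1qb*, *C1qc*, *Lyz2*, *Mpeg1*, *Ly86* and *Cd86*. For time point they included *Aif1*, *Tyrobp*, *Fcer1g*, *Cd68* and *Cd14*. *Lyz2* passed the adjusted threshold for operation once only the probes above background on all arrays were tested, with 13 probes called in all, and also with an intensity trend of the variance, with 39 called in all.

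Of 9 genes with more than 1 probe above background on all arrays, 5 had probes with a single sign of the difference between operations, *Cx3cr1*, *Csf1r*, *Laptm5*, *Cd68* and *Tlr7*. The probes of *Siglech*, *Olfml3*, *Itgam* and *Selplg* did not share a sign. For *Csf1r* the 2 dimmer probes did not overlap between operations (995 and 1141 against 698 and 750, and 527 and 571 against 455 and 440), unlike the brightest. The brightest probe sharing 18-base words with fewer than 10 other genes was also used. The only probes of *Fcgr1* and *Itgb2*, each sharing a word with 1 other gene, thus stayed. The medians were then -0.32 between operations, -0.53 between time points in sham+PSL and -0.40 in ADX+PSL. On the low side 12 genes did not overlap.

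**Figure D4:**
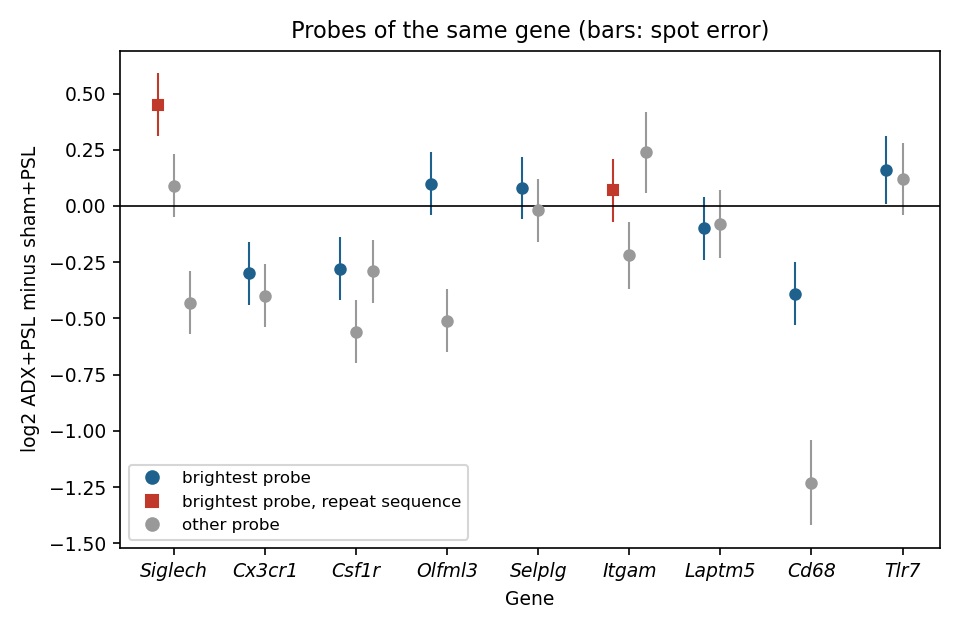
The log2 difference between ADX+PSL and sham+PSL is plotted for every probe above background on all arrays of the 9 genes with more than 1 such probe, with bars of 1 spot error. Probes of *Cx3cr1*, *Laptm5* and *Tlr7* lie within 1 spot error of each other, whereas those of *Siglech* run from -0.43 to 0.45 and those of *Cd68* from -1.23 to -0.39.

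A further list of 15 microglial genes outside the set was read in the same way. All 15 were above background on at least 1 array, with medians of -0.18 between operations, -0.41 between time points in sham+PSL and -0.21 in ADX+PSL. Lower at ZT10 in both operations were 10 of 15, against 23.7% of all probes. Lower on both ADX+PSL arrays were 4 of 15, against 16.3% of all probes. The purine receptor gene *P2ry12* had 1103 and 1461 in sham+PSL and 1142 and 1469 in ADX+PSL, so that the operations overlapped and ZT10 was the lower each time. *P2ry6*, for a receptor of uridine diphosphate, had 457 and 689 against 328 and 378, and *P2rx4*, an ATP-gated channel gene, had 2115 and 2123 against 2039 and 2250. *Fcrls*, a microglial Fc receptor-like gene, ran from 126 to 331 in sham+PSL and from 78.6 to 301 in ADX+PSL with ZT10 the lower each time. *Spi1*, which encodes PU.1 and is named Sfpi1 on the array, was above background on 2 arrays only.

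Genes of reactive microglia were read from a list of 12, of which 11 were above background on at least 1 array. Their median difference between operations was -0.77, with -0.21 at ZT10 and -0.85 at ZT22. On the low side 6 did not overlap, against 16.3% of all probes: *Apoe*, *Spp1*, *Axl*, *Lpl*, *Clec7a* and *Cst7*. The differences of these ran from -0.14 for *Apoe* and *Spp1* to -1.52 for *Clec7a*. *Itgax*, the integrin CD11c, had 94.8 in sham+PSL at ZT10, 338 at ZT22, and 96.8 and 110 in ADX+PSL. *Clec7a*, the beta-glucan receptor dectin-1, had 89.1 and 248 in sham+PSL and 56.6 and 47.2 in ADX+PSL. The chemokine gene *Ccl4* had 47.2 and 140 against 34 and 53.7. All 3 were highest in sham+PSL at ZT22, and the operations overlapped for *Itgax* and *Ccl4*. *Apoe*, which astrocytes express too, was at 106596 and 100960 against 92135 and 96001, *Bdnf* was at 178 and 168 against 205 and 167, and *Tnf* was not above background on any array. Of the ligands that act on microglia, *Csf1* had 2201 and 2494 in sham+PSL and 1848 and 2155 in ADX+PSL, *Il34* 1343 and 1411 against 1282 and 1206, and *Cx3cl1* 14560 and 13081 against 16012 and 14407. Of the 4 ligands listed, 2 were lower on both ADX+PSL arrays, against 16.3% of all probes. These were *Csf1* and *Il34*, the ligands of the receptor encoded by *Csf1r*, by 0.23 and 0.15 on the log2 scale. Their nearest levels lay close together, at 2201 and 2155 for *Csf1* and at 1343 and 1282 for *Il34*. *Csf1* is given by the brightest of its 4 probes.

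Other cells of the slices moved with the operations or time points. Of 8 genes of macrophages at the borders of the central nervous system, 7 were above background on at least 1 array. *Cd163* was not above background on any. Of the 7, 6 were lower on both ADX+PSL arrays, against 16.3% of all probes, and the median of the 7 was -1.20. Their summed level was 967 to 1766 in sham+PSL and 553 to 664 in ADX+PSL. *Mrc1*, the mannose receptor, had 177 and 113 in sham+PSL and 45.5 and 59.2 in ADX+PSL, and *Pf4* had 362 and 209 against 93.4 and 135. None of the 7 was lower at ZT10 in sham+PSL, against 47.4% of all probes. This is the direction of *Lyz2* and not of the other 34 genes of the set by their brightest probes. In ADX+PSL 5 of the 7 were lower at ZT10, with a median of -0.31, whereas *Lyz2* was 0.26 higher. Genes of meningeal fibroblasts were all 7 lower on both ADX+PSL arrays, against 16.3% of all probes, with a median of -1.94. The summed level of the fibroblast genes was 14122 to 18608 in sham+PSL and 5049 to 5542 in ADX+PSL. The part of border macrophages or meninges in the difference of *Lyz2*, *Mpeg1* or the others was not tested.

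Red cell genes were lowest in sham+PSL at ZT22, the array on which the microglial genes were highest: the summed level of all 4 was 14207 there and 60288 to 97298 on the others, and their part in the time difference was not tested. Of the T cell list, *Cd3g*, *Cd3d*, *Cd8a* and *Cd2* were not above background on any array, while *Cd3e* (672 to 750) and *Lck* (135 to 169) were above it on all. Not above background on any array were the monocyte gene *Ccr2* and the neutrophil genes *Ngp*, *Ltf* and *Retnlg*. Of the other genes on the monocyte list, *Ly6c2* was not found on the array and *Plac8* was above background on 2 arrays only. *Chi3l3* had 836 and 1096 in sham+PSL against 48.8 and 636 in ADX+PSL, a difference of -2.44. *Ly6c1* had 8761 and 4893 against 6693 and 9379, and which cells gave this signal was not tested. The part of monocytes in the microglial differences was not tested. The neutrophil genes *S100a8*, *S100a9*, *Camp* and *Mpo* were above background on all. *S100a9* was at 394 and 213 in sham+PSL and 122 and 303 in ADX+PSL. *Camp* had 164 and 130 against 117 and 134, and *Mpo* 35.3 and 44.1 against 23.7 and 50.5. *Mpo* was lower at ZT10 in sham+PSL, unlike the others. Lists of the large cell populations of the cord had medians nearer to 0: the median difference between operations was -0.08 for 5 astrocyte genes, -0.07 for 5 oligodendrocyte genes and 0.03 for 5 neuronal genes, and the median time difference in sham+PSL was -0.16, -0.06 and 0.12. A single gene could stand apart from its list, as *Gfap* did, with 15516 and 17308 in sham+PSL and 8565 and 18028 in ADX+PSL.

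**Figure D5:**
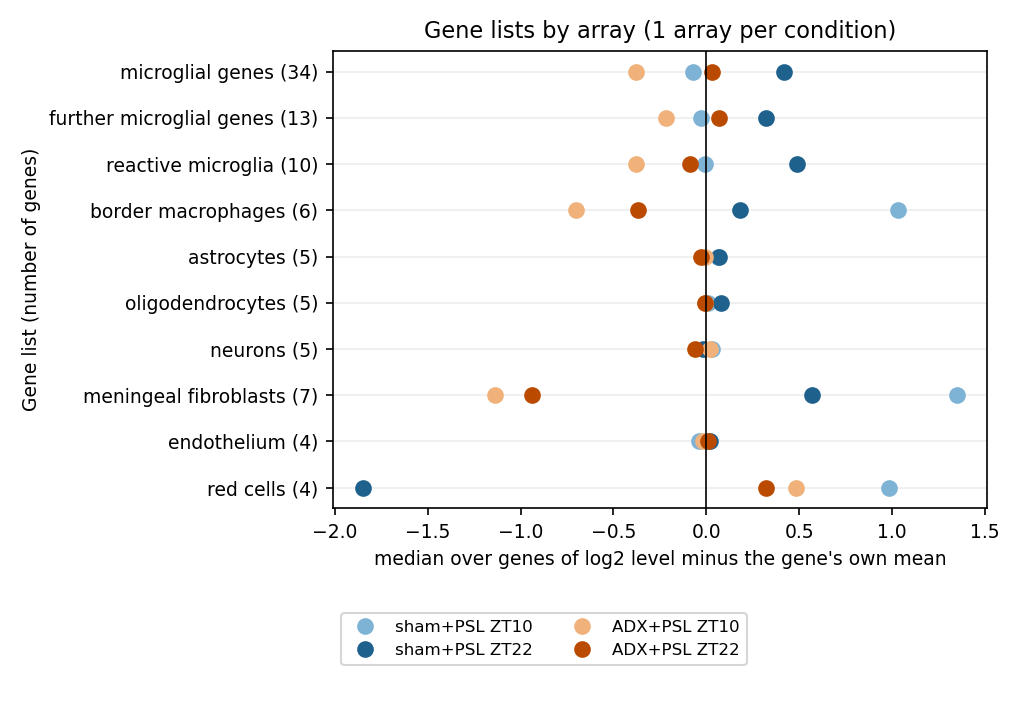
For each gene list, points give the median over its genes of the log2 level minus the gene's own mean on each of the 4 arrays, with the number of genes above background on all arrays in parentheses. The 3 microglial lists run from ADX+PSL at ZT10 to sham+PSL at ZT22, border macrophages and meningeal fibroblasts are highest in sham+PSL at ZT10 (1.03 and 1.35), and red cells are lowest in sham+PSL at ZT22 (-1.85).

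The promoters of the set were searched for sites of myeloid transcription factors. RefSeq promoter windows of GRCm38.p6, from 250 bases before to 50 bases after a gene's start, were matched for 25 of the 36 genes, in 30 windows. The binding site GAGGAAGT of PU.1, a transcription factor of the myeloid lineage, was searched on both strands, as were a composite site for PU.1 and IRF factors and an interferon-stimulated element, both with a gap of any bases. The latter pair overlap in letters. The first was found in *C1qc*, *Cd53* and *Ctss*, the second in *Cd68* and *Cybb*, and the third in *Aif1*, *Ctss* and *Cybb*, which is 3, 2 and 3 of 25 genes. Of all 27025 genes with a window, 3.69%, 3.16% and 3.99% held them. Of all 32851 windows, the shares were 3.20%, 2.72% and 3.44%. The 250 bases before the start of *Ctss*, *C1qc* and *Aif1* are shown, as genes with values on all arrays and a match in that stretch. The matches of *Cd53* and *Cd68* lie after the start. Matched letters are in capitals.
Ctss, chr3:95526536-95526785, plus strand: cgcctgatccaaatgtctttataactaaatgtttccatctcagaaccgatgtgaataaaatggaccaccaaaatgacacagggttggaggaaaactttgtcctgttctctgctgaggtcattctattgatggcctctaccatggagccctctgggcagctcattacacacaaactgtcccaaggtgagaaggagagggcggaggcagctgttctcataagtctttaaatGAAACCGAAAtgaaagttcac
C1qc, chr4:136892915-136893164, minus strand: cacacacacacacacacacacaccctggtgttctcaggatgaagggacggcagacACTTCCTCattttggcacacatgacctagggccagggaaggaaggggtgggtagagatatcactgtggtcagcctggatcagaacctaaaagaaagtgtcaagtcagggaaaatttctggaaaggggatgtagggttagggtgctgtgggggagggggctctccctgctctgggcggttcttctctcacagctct
Aif1, chr17:35176053-35176302, minus strand: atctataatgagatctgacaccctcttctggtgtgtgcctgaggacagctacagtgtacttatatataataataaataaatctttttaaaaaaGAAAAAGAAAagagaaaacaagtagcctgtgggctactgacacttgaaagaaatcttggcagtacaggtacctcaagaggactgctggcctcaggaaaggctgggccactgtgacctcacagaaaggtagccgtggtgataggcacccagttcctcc
In *C1qc* the PU.1 letters run from -195 to -188 on the other strand, and the interferon-stimulated letters run from -21 to -12 in *Ctss* and from -157 to -148 in *Aif1*. A PU.1 match of *Ctss* spans the start, from -2 to 5, and lies partly beyond the stretch shown. A match is a description of letters and not a measured site.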

How the data were processed

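Spinal mRNA of the 4 conditions was measured on 4 one-colour arrays, 1 per condition. The authors deposited spot intensities of Feature Extraction (9.5.1.1 in the submitters' processing notes, 10.7.1.1 in the file headers), with their errors and flags for spots well above background, and a table of intensities that they had quantile-normalized over the arrays, 1 value per probe. The log2 of this table was used as the level. A spot error was computed as the deposited signal error over the signal, on the log2 scale. A probe counted as above background if at least 0.5 of its spots were. No spot was saturated.

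Per gene the probe of the highest mean level was used, matched by the gene name of the files. For genes of other lists the name was else matched through RefSeq accessions. The Z-score of a log2 difference was its distance from the mean of all probes in units of their SD, and the brighter array had to be above background. Operation and time point were fitted as additive terms with limma 3.58.1 in R 4.3.3, with 1 residual degree of freedom, a prior of 1.89 degrees of freedom and Benjamini-Hochberg adjustment over 28845 probes. The fit was also run on simulated data with independent probes and additive changes, which does not test it for genes that move together. Other steps used Python 3.11.15, numpy 2.4.6, pandas 2.3.3 and matplotlib 3.10.9. With 1 array per condition, no p-value covers the spread between mice within a condition.

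The genes of the set, the other lists, the motifs and the rule for named genes (every member of the set, and examples from the other lists) were chosen with earlier results of these data known. The alternatives were quantile normalization of the processed signal, a shift by its 75th percentile, no normalization between arrays, normexp (offset 50), the mean of all probes of a gene, other background filters, each array left out, other limits, a trend of the variance and a fit without the other factor. Chosen after seeing the data were the probes sharing 18-base words with fewer than 10 other genes and the second-brightest probe. So were the count of genes lower at ZT10 in both operations and the counts of genes without overlap once an array was left out. Probe coordinates are those of mm9 in the files, and promoter windows are those of RefSeq on GRCm38.p6.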

Additional observations from a re-analysis of the deposited data

Results flagged for a closer look

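*P2rx7*, an ATP-gated channel gene, had time differences of opposite sign in the 2 operations, each beyond 2 spot errors, and the difference between the operations was not tested. Its log2 level at ZT10 minus that at ZT22 was 0.63 in sham+PSL but -1.29 in ADX+PSL, a distance of 1.92, with levels of 464 and 301 in the former and 230 and 563 in the latter. These are values of the brightest of its 3 probes. Other listed genes that met the same condition were *Pf4* (1.32 apart), *Ly6c1* (1.33), *S100a8* (2.17), *S100a9* (2.20) and *Lum* (1.94). All had a positive difference in sham+PSL and a negative one in ADX+PSL. The share of all probes that met this condition was not counted, so these genes cannot be set against a background share.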

How the results depend on the processing

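No paired analysis was possible because each condition had 1 array; the additive model compared the operations within time points. The median differences between time points and between operations kept their sign under every scaling, filter and probe choice tried, from -0.53 to -0.41 between time points in sham+PSL, from -0.42 to -0.27 in ADX+PSL, from -0.35 to -0.30 between operations, from -0.39 to -0.22 between operations at ZT10 and from -0.40 to -0.24 at ZT22. Without normalization between arrays, the median of all probes in ADX+PSL minus sham+PSL at ZT22 moved to 0.12. With 1 array left out, the median between operations ranged from -0.58 to -0.07 and the count of genes lower on every ADX+PSL array from 12 to 28. The count past the methods' limits between time points in sham+PSL was 1 in the main setting. It was 0 with normexp, with genes above background on all arrays and with Z-scores in 20 bins of intensity. It was 2 with the mean over probes, the probes sharing words with fewer than 10 other genes and the second-brightest probes. For ADX+PSL it was 1 in place of 2 with genes above background on all arrays. For ADX+PSL against sham+PSL at ZT22 it was 2 in place of 1 with normexp, and the count past a ratio of 1.5 between time points in sham+PSL was 4 in place of 8. For operation in the additive model, 1 gene, *Lyz2*, was called in place of 0 with probes above background on all arrays and with an intensity trend. Of 245 comparisons of single genes with an alternative, 231 moved by less than 1 spot error. The sign turned for *Olfml3*, to -0.21 with the mean over probes and -0.51 with the second-brightest probe, and for *Itgam*, to -0.22 with the probe without shared words and with the second-brightest probe. *Selplg* went from 0.08 to -0.02 with its second-brightest probe, which is within its spot error. With normexp, which adds an offset of 50 to each signal, the difference between operations shrank to -1.08 for *Lyz2* and -0.39 for *Cd86*. In the main setting their levels ran from 43.4 to 200 and from 70.8 to 150. The part of the offset in this was not tested. Signal over background limits *Fcgr1*, *Tlr4* and *Cybb*.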
